A study of Mus musculus with 20 samples.

Results

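Collagen transcripts of the mouse kidney were compared between animals given puberulic acid and animals given phosphate-buffered saline (PBS). All genes whose symbol reads Col, digits, a, digits were taken, which gave 44 of the 55822 genes in the table. The compound, puberulic acid, is a tropolone that certain Penicillium moulds make. RNA was measured in whole kidney by bulk sequencing of poly(A) RNA in 8-week-old males of the inbred strain C57BL/6J. The labels describe 20 samples in 4 groups of 5, namely PBS controls, puberulic acid at 1 mg per day, and a normal and a toxic batch of the supplement Choleste-Help at 1000 mg per day. Each animal was dosed daily for 6 days and the kidney was taken on day 7. The labels name both gavage and injection into the peritoneum, so the route of a given animal is not stated here. Only the control and puberulic acid groups are analysed here, as unmodified animals that differ in the agent given. The labels give each sample as its own numbered sample and do not say whether any shared a cage or litter, and p-values measure the spread between these samples.

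Collagens are extracellular proteins built of trimers of alpha chains, each chain being encoded by its own gene. Fibrillar collagens (types I, III and V among them) assemble into the cross-banded fibrils of the interstitium, while type IV collagen forms the sheet-like network of basement membranes. In the kidney, type IV trimers of the Col4a1 and Col4a2 products lie in basement membranes throughout the organ, and trimers of the Col4a3, Col4a4 and Col4a5 products form the mature glomerular basement membrane. Mutations in those last 3 genes cause Alport syndrome. Fibrillar collagen deposited by fibroblasts and myofibroblasts is the main material of kidney scars.

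Total estimated counts ran from 18409877 to 24705587 per library. Levels are given as CPM, counts divided by the library's total and brought to a common scale, after correcting totals with TMM factors (trimmed mean of M-values), and a count of 3 corresponded to between 0.0964 and 0.195 CPM. The scaling factors of the groups differed, at 0.827 to 0.848 in control libraries and 1.17 to 1.26 with puberulic acid. With total-count scaling the median log2 fold change of all genes was 0.56, against 0.05 with TMM. Proximal tubule markers were present in all 10 kidneys, at summed levels of 6971 to 11429 CPM in controls and 255.7 to 900.3 CPM with puberulic acid, and all 6 were called lower, while 31.1% of all genes tested were (the call is defined in the next paragraph). Puberulic acid replicate 3 stood apart. Its adipocyte markers summed to 70.2 CPM, against 3.53 to 6.13 CPM in the other puberulic acid kidneys and 0.249 to 0.636 CPM in controls. Adrenal cortex markers summed to 44.1 CPM there, against 1.45 to 3.44 CPM in the other kidneys given the compound. The part of neighbouring tissue in the collagen levels of that library was not tested, and counts are given with and without it.

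Collagen chains moved in both directions with puberulic acid, the fibrillar chains mostly upward and the type IV chains both ways. Of the 44 chains, 30 passed the filter on low counts (about 0.486 CPM, before TMM correction, in at least 5 of the 10 libraries), 16 of these were higher with puberulic acid, 7 were lower and 7 were not called. A gene was called at an adjusted p-value under 0.05 in the quasi-likelihood test of edgeR, after Benjamini-Hochberg adjustment over all 16266 genes tested, and every adjusted p below for a single gene is from that test. Across all genes tested, 34.2% were called higher and 31.1% lower, 65.3% in all. The chains called higher were 53.3% of those tested and those called lower 23.3%, together 76.7% against that 65.3%. With total-count scaling the split was 9179 genes higher and 2526 lower, and 21 chains higher and 6 lower. The chains called at least 2-fold higher numbered 15 of 30, while 18.7% of all genes tested met this rule. The median log2 fold change of the 30 chains was 1.35, against 0.05 over all genes. The levels of the animals in the 2 groups did not overlap for 14 tested chains that were higher and 6 that were lower, while 26.1% and 24% of all genes showed this in each direction. Without puberulic acid replicate 3 the calls were 17 higher and 7 lower, and without puberulic acid replicate 1 they were 20 and 7.

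**Figure D1:**
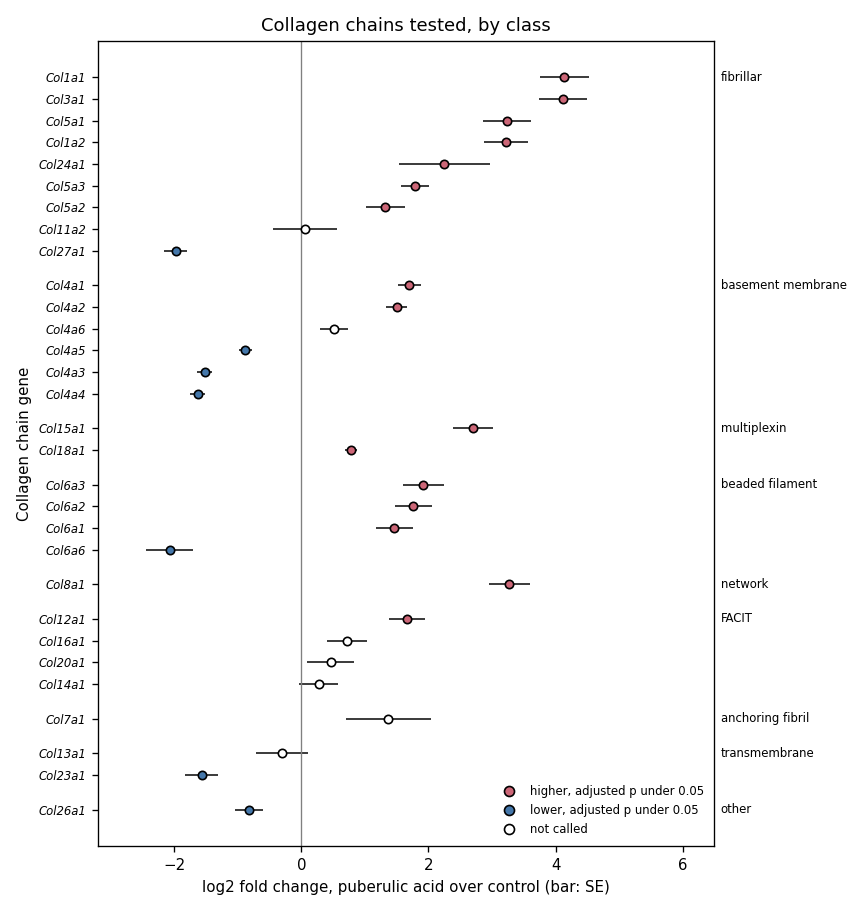
Log2 fold change of puberulic acid over control (x axis) for the 30 collagen chains tested (y axis), grouped by class, with bars for the standard error and fill for the call. Fibrillar chains reach 4.14 for Col1a1 while Col27a1 lies at -1.98, and the type IV chains lie on both sides of 0.

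The animals given puberulic acid kept a similar order across most of the chains called higher. The same count was not made for the chains called lower or for all genes. Among the 16 chains called higher, replicate 1 had the lowest level of the 5 treated kidneys in 13, and replicate 5 the highest in 13. Replicates 1 and 2 both lay below replicates 3 to 5 in 14 of the 16. Replicate 3, the library with adipocyte and adrenal markers, was neither the lowest nor the highest in any of them. The samples are bulk tissue, so more or fewer cells of a type and more or less RNA per cell cannot be told apart in any of these values.

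The fibrillar class holds 11 chains, of which 9 were tested, 7 rose, Col27a1 fell and Col11a2 was not called. Those called higher were 77.8% of the tested chains of this class, against 34.2% of all genes, and Col27a1 alone was 11.1%, against 31.1% of all genes called lower. Of the 7, Col24a1 had too few control libraries above the filter and passed it because of the treated ones. Col1a1 (ENSMUSG00000001506) encodes the chain present in most copies in type I collagen, the main collagen of scar tissue. It was at 12.6, 20.5, 18.8, 26.7 and 21.4 CPM in control replicates 1 to 5 and at 122.1, 222.2, 447.1, 427.6 and 547.2 CPM in puberulic acid replicates 1 to 5. The lowest treated kidney was well above the highest control. Its mean went from 20 ± 5.08 CPM in controls to 353.2 ± 175.0 CPM with puberulic acid (SD, n = 5 each), a log2 fold change of 4.14 (17.7-fold, SE 0.39, adjusted p = 2.44e-06), the largest among the chains tested when all kidneys were used. Col1a2 (ENSMUSG00000029661), the partner chain of the same trimer, was at 32, 42.1, 43.1, 50.2 and 48.0 CPM in controls and 159.7, 237.2, 471.0, 502.3 and 640.2 CPM with the compound. Col1a2 rose 9.34-fold (log2 fold change 3.22, SE 0.34, adjusted p = 6.17e-06), without overlap.

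Type III collagen, a trimer of a single chain that accompanies type I in soft tissue, is encoded by Col3a1 (ENSMUSG00000026043). Col3a1 was at 20, 28.3, 20, 33.3 and 27.5 CPM in controls and 173.4, 256.5, 519.2, 526.8 and 766.2 CPM with puberulic acid. Every treated kidney lay above every control, and replicate 5 held the highest level of any fibrillar chain in any library. The log2 fold change was 4.12 (17.4-fold, SE 0.38, adjusted p = 2.16e-06). It exceeded that of Col1a1 without control replicate 1 (4.03 against 4.00) and without puberulic acid replicate 3 (4.05 against 4.03). The 3 chains of types I and III rose by 9.34-fold to 17.7-fold. Tagln, a marker of myofibroblasts and smooth muscle, was at 18, 24.8, 31.6, 25.2 and 44 CPM in controls and 97.8, 174.7, 324.2, 381.4 and 351.9 CPM with the compound and rose as well (log2 fold change 3.21, adjusted p = 1.3e-05). Of the other tested myofibroblast markers, Acta2 and Postn rose and Cnn1 and Myl9 were not called. Myh11, a marker of smooth muscle, was not called either. The part of such cells in the fibrillar levels was not tested.

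Type V collagen sits in the core of type I fibrils and sets their diameter. Col5a1 (ENSMUSG00000026837) was at 4.17, 4.75, 9.16, 7.42 and 6.75 CPM in controls and 25.7, 32.5, 76.5, 81.6 and 87.9 CPM with the compound, without overlap. Col5a1 rose 9.46-fold (log2 fold change 3.24, SE 0.38, adjusted p = 1.28e-05). Col5a2 (ENSMUSG00000026042) was at 30.8, 23.6, 19.0, 14 and 16.4 CPM in controls and 23.0, 36.6, 64.7, 57.6 and 76.9 CPM with the compound. Control replicates 1 and 2 were above the lowest treated kidney, so the groups overlapped, and Col5a2 rose 2.49-fold (log2 fold change 1.32, SE 0.31, adjusted p = 0.00262). Col5a3, a less common chain of the same type, went from 1.99 ± 0.360 CPM in controls to 6.88 ± 1.58 CPM with puberulic acid (SD, n = 5 each), without overlap (log2 fold change 1.79, SE 0.22, adjusted p = 1.68e-05).

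The remaining fibrillar chains were low or fell. Col24a1 was at 0.628, 0.264, 0.191, 0 and 0.649 CPM in controls and 0.705, 3.15, 0.890, 0.489 and 3.08 CPM with puberulic acid, and the groups overlapped. Its control counts ran from 0 to 11, and only 2 control libraries against 5 treated ones exceeded the filter, so it was tested because of its levels in treated kidneys. Its log2 fold change was 2.25 (SE 0.72, adjusted p = 0.0159). Col27a1 (ENSMUSG00000045672), a fibrillar chain with a role in cartilage, was at 35.1, 44.5, 46.8, 44.1 and 71.4 CPM in controls and 13.3, 14.4, 12.1, 11 and 10.6 CPM with the compound. Col27a1 was the only tested fibrillar chain to fall, 3.94-fold without overlap (log2 fold change -1.98, SE 0.18, adjusted p = 1.57e-06), and the treated kidneys lay close together. Col11a2 averaged 0.666 ± 0.331 CPM in the control group and 0.687 ± 0.480 CPM in the treated group (SD, n = 5 each) (log2 fold change 0.06, SE 0.50, adjusted p = 0.928). Col2a1 and Col11a1, main chains of cartilage fibrils, were not tested, with at most 6 and 13 counts in any library.

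**Figure D2:**
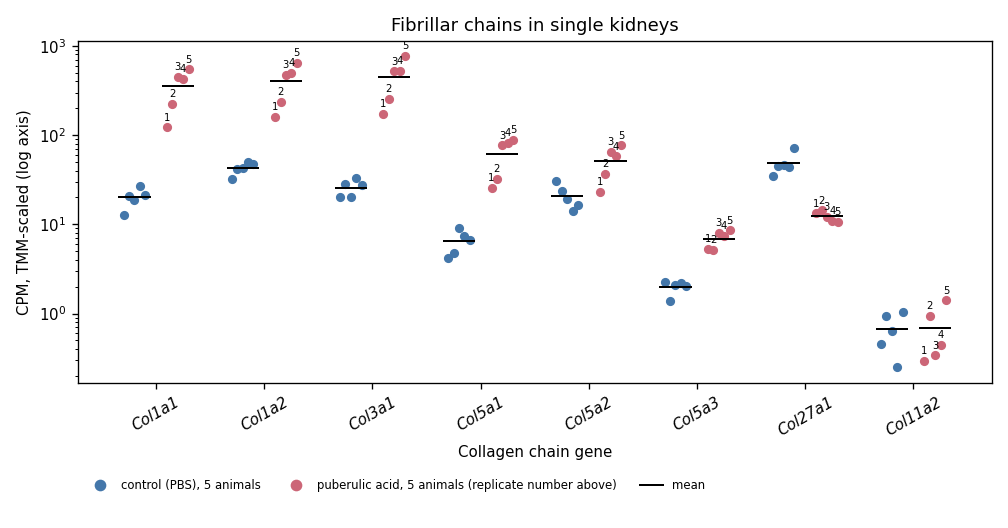
CPM on a log axis of 8 fibrillar chains (x axis) in each of 5 control and 5 puberulic acid kidneys, with the group mean as a bar and the treated replicate number above its point. Col1a1, Col1a2, Col3a1, Col5a1 and Col5a3 separate upward, Col27a1 separates downward, and Col5a2 and Col11a2 overlap.

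To show the DNA before the start of chains that moved in each direction, 150 bases ending just before the start were read for Col3a1, Col5a1 and Col8a1 (called higher) and Col23a1 (called lower), from RefSeq starts on GRCm38.p6. RefSeq starts were found for 35 of the 44 chains. These 4 were picked, with their calls known, from the windows where GENCODE M21 gives the same start and no exon of either strand lies inside. Capitals mark matches, on either strand, to 4 motifs. These were GGGCGG, known for binding Sp1, then CCAAT, known for binding NF-Y, then TATAAA, the core promoter box, and then TGANTCA, known for binding AP-1. The positions are chr1:45311388-45311537 (plus strand), chr2:27886275-27886424 (plus strand), chr16:57754738-57754887 (minus strand) and chr11:51289770-51289919 (plus strand).
Col3a1: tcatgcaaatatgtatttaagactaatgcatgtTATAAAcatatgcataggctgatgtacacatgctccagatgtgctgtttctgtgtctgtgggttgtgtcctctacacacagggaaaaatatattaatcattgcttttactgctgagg
Col5a1: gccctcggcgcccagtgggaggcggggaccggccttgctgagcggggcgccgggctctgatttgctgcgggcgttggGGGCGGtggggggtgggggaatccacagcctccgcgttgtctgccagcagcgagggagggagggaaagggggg
Col8a1: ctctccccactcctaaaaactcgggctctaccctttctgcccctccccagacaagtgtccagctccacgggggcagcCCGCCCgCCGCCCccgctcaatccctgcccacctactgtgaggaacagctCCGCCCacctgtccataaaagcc
Col23a1: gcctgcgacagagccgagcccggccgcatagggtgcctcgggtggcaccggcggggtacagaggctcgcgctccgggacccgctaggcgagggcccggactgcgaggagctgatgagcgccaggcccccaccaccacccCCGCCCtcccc
Col3a1 held a TATAAA match and no GGGCGG match, and Col5a1, Col8a1 and Col23a1 held GGGCGG in one orientation or the other. Over the 35 chains, GGGCGG was found in 19, which were 6 of 13 called higher, 4 of 5 called lower, 3 of 6 not called and 6 of 11 not tested. Of the 32851 windows of this length in the table, 28.6% held GGGCGG. That share counts single windows, while a chain was counted if any of its windows matched. Col6a2, Col9a1 and Col18a1 had more than 1 window. The letters CCAAT were found in 8 chains and in 24.5% of all windows, TATAAA in 4 chains and in 7.6%, and TGANTCA in 1 chain, Col6a1, and in 4.2%. These matches describe the letters and were not tested against expression.

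The type IV chains did not move in 1 direction. Of 6 chains, all tested, Col4a1 and Col4a2 rose, Col4a3, Col4a4 and Col4a5 fell, and Col4a6 was not called. The share called higher, 33.3%, is near the 34.2% of all genes, and the share called lower is 50%, against 31.1%. Col4a1 (ENSMUSG00000031502) was at 127.7, 189.3, 173.6, 177.6 and 202.9 CPM in controls and 410.8, 439.4, 613.8, 626.8 and 748.5 CPM with puberulic acid. Col4a2 (ENSMUSG00000031503) was at 83.4, 112.9, 99.7, 119.3 and 131.5 CPM in controls and 228.2, 241.4, 333.6, 333.6 and 406.1 CPM with the compound. Neither chain overlapped between the groups, and the treated replicates were ordered alike in both. Col4a1 rose 3.26-fold (log2 fold change 1.70, SE 0.18, adjusted p = 5.85e-06). Col4a2 rose 2.82-fold (log2 fold change 1.5, SE 0.17, adjusted p = 1.27e-05). In GENCODE M21 (GRCm38) these genes lie head to head and their outermost starts overlap by 22 bases.

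Col4a3 (ENSMUSG00000079465), a chain of the glomerular network, was at 231.8, 202.6, 185.3, 214.7 and 165.2 CPM in controls and 78.2, 63.4, 70.7, 57.9 and 77.6 CPM with puberulic acid. Its partner Col4a4 (ENSMUSG00000067158) was at 185.7, 183.4, 185.1, 194.4 and 174.8 CPM in controls and 78.4, 53.0, 55.7, 48.4 and 63.0 CPM with the compound. Both were lower in every treated kidney than in every control. Col4a3 fell 2.87-fold (log2 fold change -1.52, SE 0.12, adjusted p = 5.09e-07) and Col4a4 3.09-fold (log2 fold change -1.63, SE 0.12, adjusted p = 4.16e-07). The genes lie head to head and both fell, so the 71 bases between their outermost GENCODE M21 starts are shown, on the strand of Col4a4, at chr1:82586850-82586920 of GRCm38.p6.
Col4a3-Col4a4: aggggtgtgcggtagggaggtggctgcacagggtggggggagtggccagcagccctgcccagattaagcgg
None of the 4 motifs matched in these 71 bases.

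Col4a5 (ENSMUSG00000031274), the X-linked chain that completes the glomerular trimer, was at 41.9, 39.0, 38.3, 47.0 and 41.4 CPM in controls and 18.7, 21.3, 24.4, 25.3 and 23.0 CPM with puberulic acid. Col4a5 fell 1.84-fold without overlap (log2 fold change -0.88, SE 0.10, adjusted p = 1.03e-05). Col4a6, which pairs with Col4a5 in other epithelial basement membranes, averaged 1.67 ± 0.196 CPM in the control group and 2.37 ± 0.585 CPM in the treated group (SD, n = 5 each), and its log2 fold change was 0.51 (SE 0.22, adjusted p = 0.0595). The podocyte markers, from the cells that make the glomerular network, summed to 240.8 to 518.5 CPM in controls and 127.9 to 465.5 CPM with the compound. Of these 6 markers, 1 fell (16.7%, against 31.1% of all genes tested) and 5 were not called. The part of podocyte number in the levels of Col4a3, Col4a4 and Col4a5 was not tested.

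**Figure D3:**
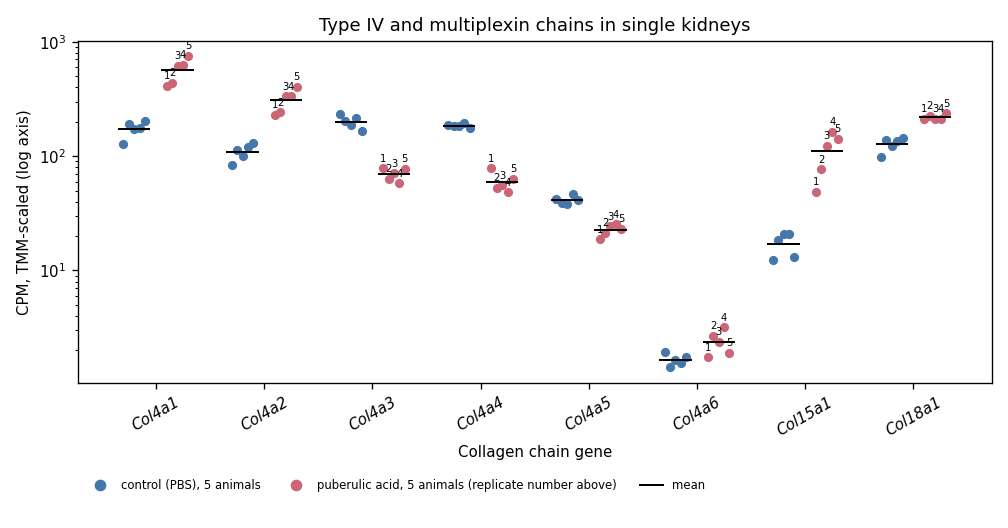
CPM on a log axis of the 6 type IV chains and both multiplexin chains (x axis) in each control and puberulic acid kidney, with the group mean as a bar and the treated replicate number above its point. Col4a1, Col4a2, Col15a1 and Col18a1 lie higher in every treated kidney, Col4a3, Col4a4 and Col4a5 lie lower, and Col4a6 overlaps.

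The multiplexins, Col15a1 and Col18a1, encode collagens of the basement membrane zone with side chains of glycosaminoglycan, and the end of the Col18a1 product is released as endostatin. Col15a1 was at 12.3, 18.3, 20.8, 20.8 and 13.0 CPM in controls and 48.9, 76.5, 123.7, 163.9 and 142.6 CPM with puberulic acid. Col18a1 was at 97.8, 137.0, 122.8, 136.5 and 143.1 CPM in controls and 211.0, 225.3, 211.5, 210.9 and 237.2 CPM with the compound. Neither overlapped between groups, and treated kidneys varied far more in Col15a1 than in Col18a1. Col15a1 rose 6.52-fold (log2 fold change 2.70, SE 0.31, adjusted p = 1.2e-05), and Col18a1 rose 1.72-fold (log2 fold change 0.78, SE 0.10, adjusted p = 4.01e-05).

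Type VI collagen forms beaded filaments around cells, usually as a trimer of the Col6a1, Col6a2 and Col6a3 products. All 3 of these rose without overlap. Col6a1 was at 5.93, 12, 13.4, 16.8 and 15.4 CPM in controls and 22.0, 24.0, 39.8, 37.1 and 51.5 CPM with puberulic acid (log2 fold change 1.46, SE 0.29, adjusted p = 0.000802). Col6a2 was at 4.17, 7.43, 7.32, 10.4 and 10.2 CPM in controls and 16.4, 18.3, 31.6, 26.6 and 40.4 CPM with the compound (log2 fold change 1.76, SE 0.29, adjusted p = 0.000204). Col6a3 was at 14.2, 9.54, 19.2, 13.0 and 7.21 CPM in controls and 26.3, 27.9, 57.5, 56.4 and 71.5 CPM with the compound (log2 fold change 1.92, SE 0.32, adjusted p = 0.000244). Their rises were between 2.75-fold and 3.8-fold, and replicate 5 was the highest treated kidney in each. Col6a6 encodes an alternative chain that can take the place of the Col6a3 product. It was at 7.02, 4.75, 6.56, 2.80 and 2.01 CPM in controls and 1.74, 0.895, 1.06, 1.06 and 0.739 CPM with puberulic acid, in each treated kidney below all controls. Col6a6 fell 4.2-fold (log2 fold change -2.07, SE 0.37, adjusted p = 0.000396). Col6a4 and Col6a5, related genes with which Col6a6 could share reads, were too low to be tested, at under 1 CPM in every library.

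Among the network-forming chains, Col8a1, which encodes a short-chain collagen of vessel walls and injured tissue, was tested. Col8a1 was at 2.68, 5.96, 4.71, 3.24 and 5.78 CPM in controls and 24.5, 27.3, 47.4, 49.8 and 66.6 CPM with puberulic acid. All treated kidneys lay above all controls, and Col8a1 rose 9.63-fold (log2 fold change 3.27, SE 0.32, adjusted p = 3.29e-06). Its partner Col8a2 did not pass the filter and averaged 0.316 ± 0.0983 CPM in the control group and 0.497 ± 0.145 CPM in the treated group (SD, n = 5 each). Col10a1, the chain of hypertrophic cartilage, did not pass either and is named because its groups did not overlap. It had 0 or 1 count in the control libraries and 2 to 50 counts with the compound, so its control level was below the 3 counts taken as the limit of detection. Treated replicate 1, with 2 counts, was below that limit too, so the lack of overlap rests on 2 counts against 1. Values of Col10a1 with puberulic acid were 0.0742, 0.128, 0.466, 0.326 and 1.61 CPM, led by replicate 5. Of the cartilage and bone markers, Ibsp had 0 counts in all 10 libraries, Acan and Bglap had 0 counts in all 5 controls, and the summed list ran from 281.7 to 667.5 CPM in controls and 63.7 to 131.1 CPM with the compound. In controls that sum is almost all Alpl, a phosphatase also made by proximal tubule, which fell (log2 fold change -3.19, adjusted p = 5.51e-05), to 105.3, 23.0, 31.8, 24.4 and 32.5 CPM in the treated kidneys. Sox9, a factor of cartilage and of injured tubule, went from 0.618 ± 0.222 CPM in controls to 37.2 ± 8.85 CPM with puberulic acid (SD, n = 5 each) and rose (log2 fold change 5.89, adjusted p = 1.23e-08), exceeding Alpl in treated replicates 2 to 4, and Comp was not called. Sox9 exceeded the filter in 4 control libraries and passed it with the treated ones. The part of these markers' cells in the level of Col10a1 was not tested.

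Fibril-associated chains, which attach to the surface of fibrils, were 9 in number, and 4 were tested. Col12a1 was at 2.97, 6.12, 5.60, 4.80 and 5.45 CPM in controls and 7.79, 11.9, 21.0, 21.2 and 17.1 CPM with puberulic acid. It rose 3.17-fold without overlap (log2 fold change 1.66, SE 0.28, adjusted p = 0.000272). Col14a1, a related chain, was at 14.8, 23.4, 29.8, 32.6 and 40.2 CPM in controls and 27.9, 17.2, 32.4, 37.8 and 53.8 CPM with the compound, and its groups overlapped (log2 fold change 0.27, SE 0.30, adjusted p = 0.452). Col16a1 was at 8.84, 15.5, 8.08, 12.3 and 9.55 CPM in controls and 6.61, 15.6, 19.1, 27.9 and 20.2 CPM with puberulic acid (log2 fold change 0.72, SE 0.32, adjusted p = 0.0636). Replicates 2 to 5 of Col16a1 lay above every control and replicate 1 below them all. With replicate 1 of the treated group left out, Col16a1 had a log2 fold change of 0.91 (adjusted p = 0.00258). Without control replicate 2 it was 0.87 (adjusted p = 0.0395), and with upper-quartile scaling of all 10 libraries 0.82 (adjusted p = 0.0384). In the other 8 fits with 1 kidney left out Col16a1 was not called. The lowest of these was 0.47 (adjusted p = 0.202), without puberulic acid replicate 4. Col20a1 averaged 0.875 ± 0.232 CPM in the control group and 1.22 ± 0.688 CPM in the treated group (SD, n = 5 each) and was not called (log2 fold change 0.46, SE 0.37, adjusted p = 0.287). Col19a1 was not tested and is named because it had its counts mainly in controls, at 1.08, 1.21, 1.91, 0.374 and 0 CPM against 0.148, 0.170, 0.0847, 0 and 0.0964 CPM with the compound.

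The last classes were low. Col7a1, the chain of anchoring fibrils, averaged 1.66 ± 1.76 CPM in the control group and 4.25 ± 2.63 CPM in the treated group (SD, n = 5 each) and was not called (log2 fold change 1.37, SE 0.67, adjusted p = 0.0929). Without control replicate 5 its log2 fold change was 2.18 (adjusted p = 0.0112), and without puberulic acid replicate 1 it was 1.59 (adjusted p = 0.0419). In the other 8 fits with 1 kidney left out Col7a1 was not called. The lowest of these was 0.97 (adjusted p = 0.244), without puberulic acid replicate 2. Of the transmembrane chains, Col23a1 went from 3.49 ± 1.02 CPM in controls to 1.17 ± 0.262 CPM with puberulic acid (SD, n = 5 each) and fell without overlap (log2 fold change -1.57, SE 0.26, adjusted p = 0.000233), and Col13a1 was not called (log2 fold change -0.30, SE 0.41, adjusted p = 0.546). Col26a1 went from 6.09 ± 0.915 CPM in controls to 3.45 ± 1.16 CPM with puberulic acid (SD, n = 5 each) and fell with overlap, since puberulic acid replicate 2 was at 5.49 CPM (log2 fold change -0.82, SE 0.22, adjusted p = 0.00576). With total-count scaling the log2 fold change of Col26a1 was -0.32 and its call was lost (adjusted p = 0.21). The 14 chains not tested were Col2a1, Col6a4, Col6a5, Col8a2, Col9a1, Col9a2, Col9a3, Col10a1, Col11a1, Col17a1, Col19a1, Col22a1, Col25a1 and Col28a1. Of the tested chains, Col7a1, Col11a2, Col13a1, Col20a1 and Col24a1 passed the filter with fewer than 5 control libraries above it.

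Summed over the 44 chains, collagen transcripts went from 1125 ± 82.0 CPM in controls to 2935 ± 997.4 CPM with puberulic acid (SD, n = 5 each), a ratio of 2.61 that is given without a test. The sum was 995.4, 1151, 1100, 1200 and 1181 CPM in control replicates 1 to 5 and 1742, 2097, 3299, 3358 and 4177 CPM in puberulic acid replicates 1 to 5. The groups did not overlap, and the treated kidneys spanned a far wider range than the controls. Without puberulic acid replicate 3 the treated mean was 2844 CPM. The fibrillar chains went from 167.6 ± 21.2 CPM in controls to 1338 ± 658.6 CPM with puberulic acid (SD, n = 5 each), and their share of the sum from 14.9% ± 1.0 to 43.3% ± 8.82 (SD, n = 5 each). Type IV chains went from 711.4 ± 33.5 CPM in controls to 1031 ± 213.7 CPM with puberulic acid (SD, n = 5 each) and their share from 63.3% ± 2.56 to 36.7% ± 6.37. In the kidneys with the lowest and highest collagen sums of the treated group, replicates 1 and 5, the fibrillar share was 30.1% and 51.3%. The multiplexin share was 12.8% ± 0.984 in controls and 11.9% ± 2.59 with the compound, within the spread of the animals.

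**Figure D4:**
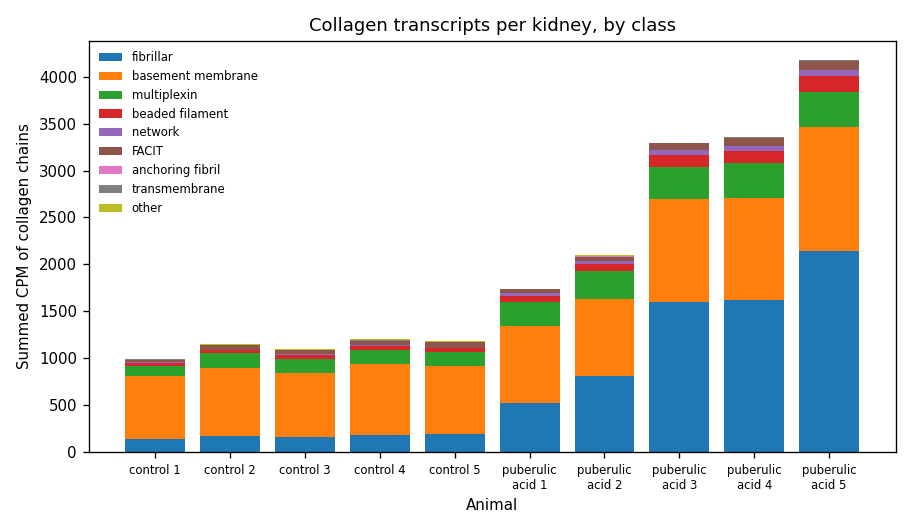
Summed CPM of all collagen chains (y axis, from 0) in each kidney, stacked by class. Type IV chains make up most of each control bar, while the fibrillar segment grows from 523.8 CPM in puberulic acid replicate 1 to 2142 CPM in replicate 5.

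Levels of different chains were compared per kilobase of the longest protein-coding GENCODE M21 transcript, since a longer transcript collects more counts. In controls the 5 leading chains by mean CPM per kilobase were Col4a1 at 26.3, Col4a3 at 23.4, Col18a1 at 22.8, Col4a4 at 18.3 and Col4a2 at 17.0. Col1a2 was next at 8.05, Col3a1 was in place 9 at 4.64 and Col1a1 in place 11 at 3.37. With puberulic acid the order by mean was Col4a1 at 85.8, Col3a1 at 80.6, Col1a2 at 75.2, Col1a1 at 59.6 and Col4a2 at 47.8 CPM per kilobase. The order differed between treated kidneys. In replicate 1, Col4a1 led at 62.1, followed by Col18a1 at 37.7, Col4a2 at 35.4 and Col3a1 at 31.2 CPM per kilobase, while in replicate 5 Col3a1 led at 137.7, followed by Col1a2 at 119.7 and Col4a1 at 113.2. By the treated mean, Col4a3 was in place 10 at 8.13 and Col4a4 in place 13 at 5.91 CPM per kilobase.

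Ratios between chains in the same library do not depend on how libraries are scaled. For 9 pairs, the log2 ratio of counts (with 0.5 added to each count) was compared by an exact two-sided permutation test over all assignments of 5 kidneys against 5, whose smallest p is 0.00794, with adjustment over the 9 pairs. Groups did not overlap for 7 pairs, each at that smallest p (adjusted p = 0.0102, exact permutation test). The log2 ratio of Col4a1 to Col4a3 went from -0.21 ± 0.42 to 3.00 ± 0.41 (SD, n = 5 each), a difference of 3.21. Every treated kidney lay above every control for Col4a1 and below every control for Col4a3. The groups of this ratio therefore could not overlap, and its p adds no test beyond the single chains. In controls the log2 ratio ran from -0.86 to 0.30, on both sides of equal counts, and with the compound Col4a1 exceeded Col4a3 in every kidney. The log2 ratio of Col4a5 to Col4a6 went from 4.62 ± 0.19 to 3.26 ± 0.27, a difference of -1.35. Col4a1 to Col4a2, chains of the same trimer, changed by only 0.20, from 0.67 ± 0.10 to 0.88 ± 0.02. Col4a3 to Col4a4 was at 0.11 ± 0.15 in controls and 0.23 ± 0.14 with the compound (difference 0.13, exact permutation p = 0.206, adjusted p = 0.232).

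Among fibrillar pairs the log2 ratio of Col1a1 to Col1a2 went from -1.13 ± 0.16 to -0.20 ± 0.13, a difference of 0.93. The log2 ratio was below 0 in all 10 kidneys and lower in each control than in any treated kidney. The log2 ratio of Col3a1 to Col1a1 was 0.38 ± 0.21 and 0.34 ± 0.14 (difference -0.04, exact permutation p = 0.73, adjusted p = 0.73), and its groups overlapped. Col5a1 to Col5a2 changed from -1.68 ± 0.86 to 0.18 ± 0.24 (difference 1.87). Col6a1 to Col6a2 changed from 0.67 ± 0.13 to 0.39 ± 0.06 (difference -0.27), and Col8a1 to Col8a2 from 3.68 ± 0.60 to 6.33 ± 0.62 (difference 2.65), with 4 to 20 counts of Col8a2 per library.

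**Figure D5:**
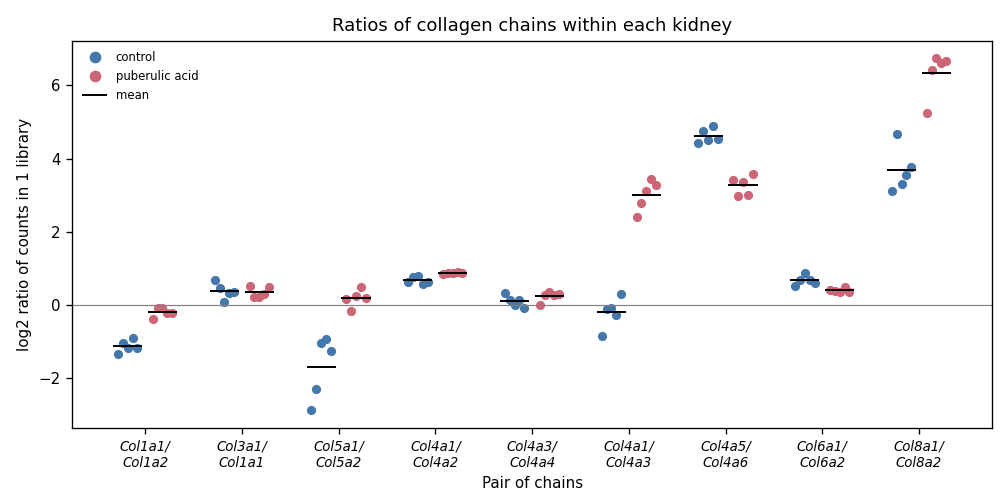
Log2 ratio of counts in the same library (y axis) for 9 pairs of collagen chains (x axis) in each control and puberulic acid kidney, with the group mean as a bar. Col4a1/Col4a3, whose single chains separate in opposite directions, shows the widest separation, a difference of 3.21. Col3a1/Col1a1 and Col4a3/Col4a4 overlap.

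The genes that act on collagen chains were read from lists chosen with earlier results of these data known, and their counts describe the lists and are not tested as sets. Each is read against the 34.2% of all genes tested that were called higher and the 31.1% called lower. Of 17 tested genes for chain modification and folding, 6 were higher (35.3%), 4 lower (23.5%) and 7 not called, with a median log2 fold change of 0.21. The share higher is near that of all genes. Serpinh1, the collagen chaperone HSP47, went from 89.4 ± 20.9 CPM in controls to 244.8 ± 46.0 CPM with puberulic acid (SD, n = 5 each) without overlap (log2 fold change 1.45, SE 0.18, adjusted p = 1.94e-05). Fkbp10, a prolyl isomerase of the endoplasmic reticulum, rose by 2.04 on the log2 scale (adjusted p = 9.96e-05). The collagen galactosyltransferases split, Colgalt1 rising (1.04, adjusted p = 8e-07) and Colgalt2 falling (log2 fold change -1.11, adjusted p = 0.001). Of 10 tested genes for secretion and propeptide processing, 3 rose (30%), 1 fell (10%) and 6 were not called, with a median of 0.27. The share higher is again near that of all genes. The risers were the propeptide cutters Adamts2 (log2 fold change 2.48, adjusted p = 2.66e-05) and Bmp1 (1.70, adjusted p = 7.85e-05) and the enhancer of Bmp1 activity Pcolce2 (1.74, adjusted p = 0.00012). Mia3, which loads collagen at export sites, fell by a small amount (log2 fold change -0.31, adjusted p = 0.0138).

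All 6 cross-linking genes rose, against 34.2% of all genes tested, with a median log2 fold change of 2.10. Of these, Loxl4 exceeded the filter in 4 control libraries and passed it with the treated ones. Lox, the lysyl oxidase that cross-links fibrils, was at 2.28, 2.48, 4.45, 2.80 and 5.45 CPM in controls and 14.3, 25.2, 38.3, 44 and 42.1 CPM with puberulic acid (log2 fold change 3.24, SE 0.35, adjusted p = 6.54e-06). Loxl4, a related enzyme, was at 0.742, 0.896, 0.573, 1.93 and 0.844 CPM in controls and 42.6, 22.9, 24.4, 19.2 and 27.0 CPM with the compound, and puberulic acid replicate 1 was the highest rather than the lowest. Its log2 fold change was 4.77 (SE 0.33, adjusted p = 2.06e-07). Loxl2 rose by 2.86 on the log2 scale (adjusted p = 3.92e-06), and Pxdn, the peroxidase that cross-links type IV collagen, by 1.34 (adjusted p = 6.76e-05).

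Of 16 genes for partners of fibrils, 11 were higher (68.8%, against 34.2% of all genes), 4 lower (25%, against 31.1%) and 1, Prelp, was not called, with a median log2 fold change of 1.49. Postn and Lum, among the 11, exceeded the filter in 4 control libraries each and passed it with the treated ones. Tnc, a glycoprotein of injured matrix, was at 3.31, 3.27, 3.31, 4.49 and 4.35 CPM in controls and 41.5, 79.4, 130.7, 154.0 and 165.2 CPM with puberulic acid (log2 fold change 4.93, SE 0.37, adjusted p = 4e-07). Fn1, or fibronectin, rose by 2.93 on the log2 scale (adjusted p = 7.91e-06), Thbs1 by 2.85 (adjusted p = 3.02e-06) and Postn by 2.55 (adjusted p = 0.00103). The members that fell, named after their values were seen, were the small leucine-rich proteoglycans Fmod (log2 fold change -1.97), Ogn (-1.49) and Aspn (-1.31) and the tenascin Tnxb (-0.50). Other proteoglycans of that family rose, namely Bgn (log2 fold change 1.5, adjusted p = 0.00012), Dcn (1.24, adjusted p = 0.00196) and Lum (1.18, adjusted p = 0.0153), so the family did not move in 1 direction. Of 14 basement membrane partners, 4 were higher (28.6%), 2 lower (14.3%) and 8 not called, with a median of 0.21, and both shares lie below the 34.2% and 31.1% of all genes. The laminin chain Lamb3 (log2 fold change 3.92, adjusted p = 4.22e-06) and nidogen Nid1 (1.86, adjusted p = 4.61e-06) rose, and laminin Lama1 fell (log2 fold change -1.75, adjusted p = 0.00202).

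Collagen receptors held 8 tested genes, of which 6 were higher (75%, against 34.2% of all genes) and Itga10 and Ddr1 were not called, with a median log2 fold change of 1.16. Itga2 (4 control libraries above the filter) and Itga10 (2) passed it with the treated ones. The integrin chains Itga2 (2.94, adjusted p = 2.15e-06) and Itgb1 (1.27, adjusted p = 7.94e-07), the leukocyte receptor Lair1 (2.70, adjusted p = 0.000648) and the uptake receptor Mrc2 (1.66, adjusted p = 4.06e-05) rose. In the collagenolysis list 6 of 8 tested genes were higher (75%), Timp3 was lower and Mmp2 was not called, with a median of 1.39. Timp1, an inhibitor of matrix metalloproteinases, went from 0.419 ± 0.212 CPM in controls to 119.8 ± 50.9 CPM with puberulic acid (SD, n = 5 each) (log2 fold change 8.18, SE 0.46, adjusted p = 5.48e-08), with 3 counts in the lowest control. Timp1 and Mmp9 each exceeded the filter in 1 control library and all 5 treated ones, so both were tested because of their levels in treated kidneys and count among the 6. Mmp13, also among the 6, exceeded the filter in 4 control libraries and passed it with the treated ones. Timp3, an inhibitor of the same family, was at 1813, 1981, 1716, 1735 and 1430 CPM in controls and 694.0, 405.5, 457.3, 403.6 and 583.1 CPM in treated kidneys and fell (log2 fold change -1.77, adjusted p = 2.09e-06). The proteases Mmp14 (2.65, adjusted p = 5.54e-06) and Mmp9 (2.19, adjusted p = 0.000883) rose by those log2 fold changes.

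Upstream signals and factors held 17 tested genes, of which 15 were higher (88.2%, against 34.2% of all genes), Pdgfc was lower and Pdgfd was not called, with a median log2 fold change of 1.5. Among the 15, Runx1 exceeded the filter in 4 control libraries and Runx2 in 3, and both passed it with the treated ones. The transcription factor Runx1 was at 1.94, 0.580, 0.891, 1.12 and 0.779 CPM in controls and 44.9, 72.8, 57.3, 76.4 and 56.9 CPM with puberulic acid, and every treated kidney lay above every control. Runx1 rose by 5.85 on the log2 scale (SE 0.28, adjusted p = 1.67e-08), the ligand Tgfb3 by 3.02 (adjusted p = 3.54e-05) and the matricellular gene Ccn1 by 2.59 (adjusted p = 2.36e-05).

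Markers of the cells that make or accompany collagen moved unevenly, and their counts stand beside the 34.2% of all genes tested called higher and the 31.1% called lower. Of 5 tested myofibroblast markers 3 rose (60%) and none fell, and the list summed to 68.8 to 152.1 CPM in controls and 203.4 to 715.4 CPM with puberulic acid. Acta2, the smooth muscle actin of myofibroblasts and of vessel walls, was at 16.5, 25.4, 29.9, 22.2 and 46.9 CPM in controls and 69.7, 117.1, 241.2, 254.9 and 275.6 CPM with the compound (log2 fold change 2.77, SE 0.39, adjusted p = 6.53e-05). Its lowest treated kidney was replicate 1 and its highest replicate 5, as for Col3a1, while Tagln was highest in replicate 4, at 381.4 CPM. Cnn1 (log2 fold change 1.18, adjusted p = 0.101) and Myl9 (0.22, adjusted p = 0.461) were not called. Postn, which rose, and Cnn1 each exceeded the filter in 4 control libraries and passed it with the treated ones. Of 7 tested fibroblast and pericyte markers, Pdgfrb rose (log2 fold change 1.09, adjusted p = 0.000453), Rgs5 fell (-0.72, adjusted p = 0.0273) and 5 were not called, Pdgfra among them (log2 fold change 0.33, adjusted p = 0.217). That list summed to 168.2 to 250.6 CPM in controls and 147.2 to 283.9 CPM with puberulic acid. Macrophage markers, of which 4 of 6 rose (66.7%), summed to 86.1 to 208.1 CPM and 187.7 to 650.6 CPM. Smooth muscle and mesangium markers, of which 1 of 5 rose and 1 fell, summed to 92.8 to 308.4 CPM and 38.9 to 130.3 CPM. Endothelial markers, of which 2 of 6 fell (33.3%, near the share of all genes), summed to 206.7 to 297.7 CPM in controls and 115.6 to 249.7 CPM with the compound. Of 6 markers of the loop and of later tubule segments, 5 fell (83.3%), and their sum was 4136 to 6106 CPM in controls and 3260 to 6459 CPM with the compound. Lymphocyte markers summed to 6.87 to 14.6 CPM and 16.4 to 48.8 CPM, with 1 gene higher. Urothelial markers summed to 1.43 to 6.17 CPM and 17.1 to 46.3 CPM, carried in treated kidneys by the keratin Krt5 (log2 fold change 6.07, adjusted p = 1.55e-08), which no control library and all 5 treated ones held above the filter, while the uroplakins Upk1b, Upk2 and Upk3a were not called. Uroplakins stood apart in puberulic acid replicate 3, where Upk1b was at 11.2 CPM against 0.326 to 1.19 CPM in the other treated kidneys. The part of these cell types in the collagen levels was not tested.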

How the data were processed

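The deposited values are estimated counts, with decimals, for each gene. The submitters' processing notes name fastp 0.22.0, FastQC 0.12.1, MultiQC 1.28, Salmon 1.10.3, DESeq2 and the build GRCm39, while their roles and the annotation are not given in the sources used here. Per the labels' protocols, poly(A) RNA and a directional kit were used. A column was used where its name matched a sample. Another 10 columns of per-sample values have names that match no sample and were not used. Symbols were matched for 51344 of 55822 identifiers, holding 99.3% of the counts.

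Counts were rounded and tested on the whole table with edgeR 4.0.16 (glmQLFit and glmQLFTest, robust off, TMM factors, filterByExpr) and limma 3.58.1 in R 4.3.3, without a replicate block, since same-numbered samples are different animals. The standard error is the size of the log2 fold change over the square root of the F statistic. A floor of 3 counts covers counting error only. Ratios and sums used Python 3.11.15 with scipy 1.17.1. Alternatives were other scalings (RLE, total count, upper quartile), other filters, DESeq2 1.42.0, a robust fit, mitochondrial and the 10 most abundant genes left out, a fold threshold, the block, and each sample left out.

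Values in every sample are given for the 20 chains with the highest mean CPM and for called chains with a log2 fold change of at least 2 in size. From each pathway list, up to 4 called members with the largest change and a mean of at least 1 CPM in either group are named, and those not called where 5 or fewer. Of the list members this rule names, 2 are not reported here. The chains, lists and tests were chosen with earlier results of these data known. Starts are RefSeq's and GENCODE M21's on GRCm38, another build than the notes name, so no other coordinates are given. For some chains no start sequence is used here.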

Additional observations from a re-analysis of the deposited data

Results flagged for a closer look

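In each group of 5 kidneys, the levels of 22 chains, the ratios and the sums were searched for values that stood apart. The 22 were the chains chosen for values in every sample, and other chains, Col10a1 and Col26a1 among them, were not searched. A value stood apart if it was lowest or highest and its gap to the nearest other value exceeded 0.71 of the whole range. Of 82 groups of values searched 3 had such a value, and chance gives about 1 in 20. In puberulic acid replicate 1 the log2 ratio of Col4a3 to Col4a4 was the lowest of its group, with a gap of 0.756 of the range. In the same kidney the log2 ratio of Col8a1 to Col8a2 was 5.24, against 6.42 to 6.74 in the other kidneys given the compound (gap 0.790 of the range). The summed level of Col26a1 and Col28a1 was highest in puberulic acid replicate 2, at 5.58 CPM against 2.86 to 3.22 CPM in the others (gap 0.868 of the range).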

How the results depend on the processing

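Over the other scalings, filters, tools and the block, chains called higher numbered 16 to 21 and chains called lower 6 to 8, and leaving out 1 kidney at a time gave 16 to 20 and 7. With a log2 fold change of at least 1 required, 15 chains were higher and 5 lower. Of the 23 called chains, 22 kept their call in every alternative but that threshold that tested them, though Col24a1 was left untested by a filter of 1 CPM in 5 samples, and Col26a1 lost its call with total-count scaling. With total-count scaling Col4a6, Col7a1, Col14a1, Col16a1 and Col20a1 were called higher as well. Col4a6 was also called with upper-quartile scaling (adjusted p = 0.0313), a 1 CPM filter (0.0492) and without puberulic acid replicate 1 (0.0382), and Col16a1 with upper-quartile scaling (0.0384). Total-count scaling called 9179 genes higher and 2526 lower, against 5564 and 5058, and the fold threshold left 5264 genes, 3048 higher and 2216 lower. Leaving out 1 kidney gave 10104 to 11108 genes. Total-count scaling put the collagen sum at 943.8 CPM for the control group and 3522 CPM for the treated group, and without Col4a1 it was 951.2 and 2367 CPM, against 1125 and 2935 CPM. The sign turned in 3 results, none of a called result, and the cause was not tested. Col13a1 was at 0.21 with total-count scaling, Col11a2 at -0.04 with the replicate block and -0.43 to 0.25 without single kidneys, and the ratio of Col3a1 to Col1a1 ran from -0.11 to 0.03 without single kidneys.

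Deviations of same-numbered samples correlated at -0.036 on average (-0.172 to 0.039), so the numbers do not pair the kidneys. The replicate block called 10325 genes and 16 and 7 chains. For the ratios, the smallest p that exact sign flips of 5 pairs can give is 0.0625, so by construction none passed in the block, with an adjusted p of 0.0804 and differences of 0.93 (Col1a1/Col1a2), 1.87 (Col5a1/Col5a2), 0.20 (Col4a1/Col4a2), 3.21 (Col4a1/Col4a3), -1.35 (Col4a5/Col4a6), -0.27 (Col6a1/Col6a2) and 2.65 (Col8a1/Col8a2). Chains not tested had at most 50 counts in a library, and depth was not varied.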
